A study of Mus musculus with 24 samples.

Results

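Adhesion of pancreatic duct cells to their matrix was followed through 34 genes in mouse organoids. The genes were chosen by name: 11 integrin subunits, 6 laminin chains, 6 other matrix proteins, 4 proteins of the hemidesmosome, 5 cytoplasmic adaptors and the receptors Cd44 and Cdh1. All 34 symbols were found in the deposited table of 19895 entries. Of them, 28 had an entry of their own with a count above 0 in every library and are among the 11438 genes tested. Itgb4, Col4a1, Col4a2 and Ilk were counted only in 3 entries shared between several symbols (Galk1+Itgb4, Col4a1+Col4a2 and Ilk+Rrp8+Taf10), and Itgb8 and Col17a1 had a count of 0 in at least 1 library.

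N organoids were ductal cultures from the pancreas of wildtype C57Bl/6J mice, and KP organoids were grown from pancreatic ductal adenocarcinomas of Pdx1-Cre mice that carry p53R172H among the alleles that Cre switches on in cells of the pancreatic lineage. Both were embedded in a basement membrane extract (growth factor-reduced Matrigel). They received either vehicle or CR-31 (CR-1-31-B), a rocaglate that inhibits the RNA helicase eIF4A, at 10 nM for 1 h. With 3 lysates in each of the 4 groups, mRNA bound by at least 3 ribosomes was pooled as polysome-associated mRNA, and total mRNA was taken from the same lysates before the gradient, which gave 24 libraries. The labels number the lysates but do not say whether they came from separate mice or cultures, so a p-value measures the spread between these lysates, which may in part be technical. Vehicle and CR-31 lysates of the same number correlated (r = 0.46 to 0.80 in KP and 0.55 to 0.89 in N) but were fitted as independent. The fit thus counts more independent lysates than there may be, and p-values of KP against N may be too small.

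Integrins are receptors made of an alpha and a beta subunit that tie the cell to its matrix. Inside the cell their beta tails are linked to actin through talin and vinculin, and integrin alpha6 beta4 instead anchors keratin filaments through plectin and dystonin in the hemidesmosome. Outside the cell, laminins, each a trimer of an alpha, a beta and a gamma chain, join with type IV collagen, nidogen, perlecan and agrin to form the basement membrane on which duct cells sit, while fibronectin, bound by integrins alpha5 beta1 and alpha v, belongs to the interstitial and provisional matrix.

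Counted reads ranged from 47308461 to 267463046 per library. Summed RPKM of 8 duct markers was 3290 to 8035 in every library, while 8 fibroblast, 5 endothelial and 4 endocrine markers each summed to at most 0.158, 0.0942 and 0.0837 RPKM. The 5 leukocyte markers together came to 6.66 to 21.06 RPKM in N and 1.64 to 7.29 RPKM in KP libraries, 5 mesenchymal-like markers to 0.611 to 5.01 and 0.0682 to 12.7 RPKM, and 5 acinar markers to 2.81 to 4.73 RPKM in all. The polysome-associated library of KP vehicle replicate 3 stood apart from its total library, since the pan-leukocyte gene Ptprc reached 0.532 RPKM against at most 0.0142 elsewhere in vehicle-treated polysome libraries, and Vim reached 12.3 RPKM against 0.276 in total mRNA of that lysate. Replicate 3 of N organoids differed from replicates 1 and 2 in the direction of its CR-31 changes, with values given beside those results, and in Cd68, at 10.53 to 19.6 RPKM in its 4 libraries against 3.52 to 5.59 in those of N replicates 1 and 2. Twist1 was at 1.95 to 3.52 RPKM in N replicates 1 and 2 and at most 0.285 in N replicate 3, and Cdh2 at 1.16 to 1.43 RPKM in N replicate 1 and at most 0.127 in the other N libraries. Each organoid type was sequenced on 2 lanes of its own, so organoid type and lane cannot be told apart.

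In total mRNA of vehicle-treated organoids the members covered a wide range of levels per transcript length. In N organoids the most abundant members with an entry of their own were Cd44, a receptor for hyaluronan, at 182 ± 13.16 RPKM in N and 61.0 ± 14.7 RPKM in KP organoids (mean ± SD, n = 3 each), the tetraspanin Cd151 that binds laminin-receptor integrins, at 103 ± 21.8 and 78.5 ± 11.7 RPKM, and E-cadherin (Cdh1), the adhesion protein between epithelial cells, at 97.6 ± 24.97 and 79.4 ± 14.4 RPKM. In KP organoids Cdh1 and Cd151 led and Cd44 came after Itga3, with overlapping ranges. The joint entry with Ilk stood at 407 ± 15.7 and 416 ± 12.98 RPKM and the joint entry with Itgb4 at 58.4 ± 13.03 and 78.6 ± 14.7 RPKM, of which the shares of Ilk and Itgb4 cannot be told apart from those of the other symbols.

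Among the integrin subunits, Itga3 (60.6 ± 45.7 RPKM in N, 63.5 ± 27.5 in KP) and Itgb1 (43.9 ± 22.7 and 26.6 ± 1.72) led, which together form a laminin receptor. Below them in N organoids came Itgb6 (16.16 ± 3.66 RPKM, 2.20 ± 0.481 in KP), Itgav (12.3 ± 3.43, 3.28 ± 0.385 in KP), Itgb5 (10.2 ± 3.33), Itga6 (8.73 ± 4.27) and Itga2 (5.33 ± 3.42), whose ranges over the lysates overlapped between neighbours. Itga1 and Itga5 were at most 1.17 and 1.11 RPKM in each lysate. Of the laminins, Lamb3 (13.4 ± 1.11 RPKM) and Lama5 (10.5 ± 3.89) were the highest in N, followed by Lamc1 (5.42 ± 1.64), Lamb2 (5.28 ± 0.288) and Lamb1 (2.96 ± 1.90), while Lama3 was at 0.414 ± 0.224. In KP organoids Lamc1 (13.9 ± 1.36 RPKM) and Lama5 (13.8 ± 1.08) led the laminins. Other members stood between fibronectin (Fn1, 34.5 ± 17.8 RPKM in N and 3.53 ± 4.19 in KP) and nidogen (Nid1, 0.538 ± 0.490): Flna 24.2 ± 14.98, Agrn 23.2 ± 4.43, Vcl 21.2 ± 8.74, Ptk2 11.4 ± 4.99, Tln1 4.40 ± 2.40, Hspg2 4.11 ± 0.990 and Plec 1.32 ± 0.540 in N. The joint entry of Col4a1 and Col4a2 was at 26.95 ± 2.60 RPKM in N and 7.78 ± 2.28 in KP. Dst was at 0.393 ± 0.101 RPKM, and Col17a1, the hemidesmosomal collagen, had 0 to 6 counts in each of the 24 libraries.

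**Figure D1:**
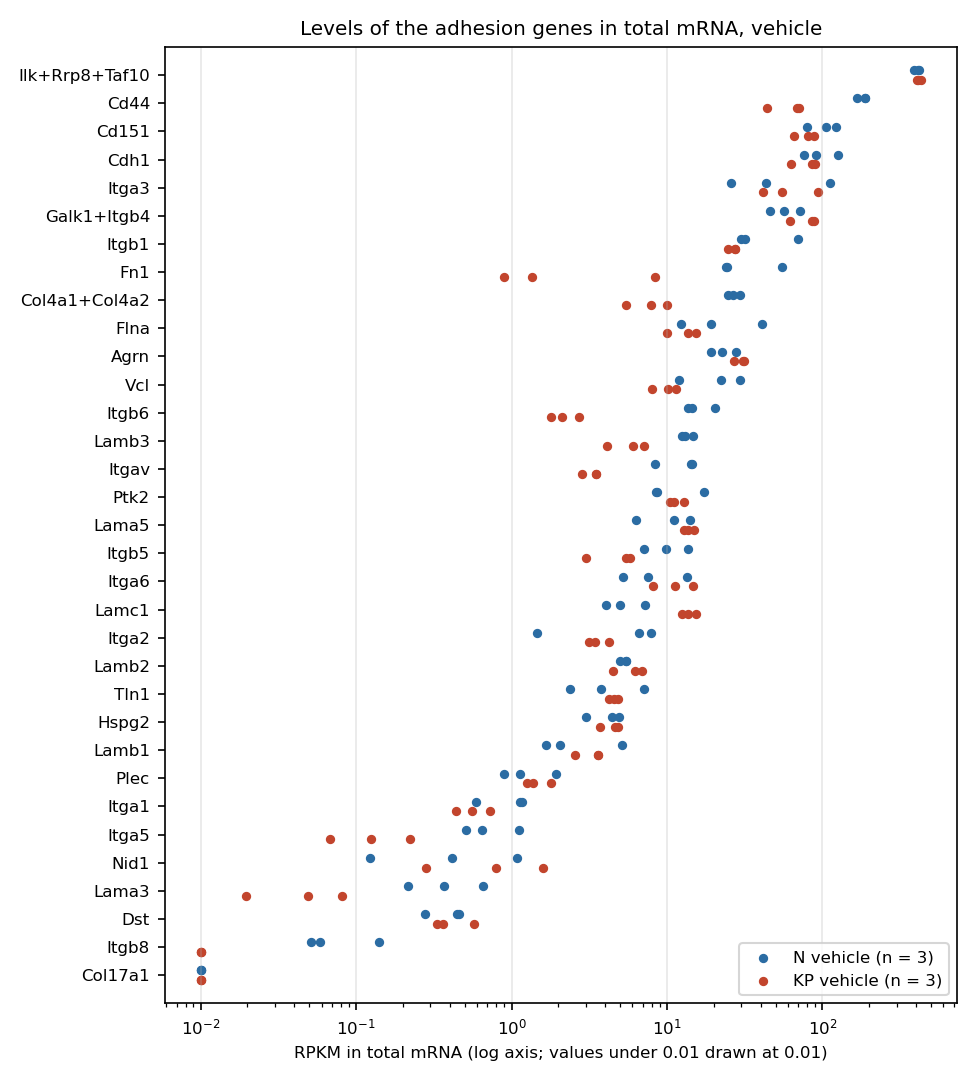
RPKM of each entry that holds a member in total mRNA of vehicle-treated N (blue) and KP (red) organoids, with a point for each lysate on a log axis, ordered by the mean in N. Values under 0.01 are drawn at 0.01. The red points of Fn1, Lama3, Itgb6, Itga5, Itgav and the joint entry of Col4a1 and Col4a2 lie wholly to the left of the blue ones, and those of Lamc1 to the right.

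To ask how the adhesion genes differ between tumour and normal organoids, KP was compared with N in each fraction, with edgeR's quasi-likelihood test, Benjamini-Hochberg adjustment over all 11438 genes and the study's threshold of 0.25. In polysome-associated mRNA of vehicle-treated organoids, 13 of the 28 tested members were lower in KP and 0 were higher, while 22.2% of all tested genes were called lower and 20.9% higher. In total mRNA 12 members were lower and 1, Lamc1, was higher, against 15.4% and 13.1% of all genes. The members had a median log2 fold change of -0.60 on polysomes and of -0.37 in total mRNA, against -0.03 over all genes in both. At an adjusted p under 0.05, 10 and 8 members were called, against 15.2% and 8.99% of all genes. In both fractions 10 were lower: Itga1, Itgav, Itgb5, Itgb6, Lama3, Lamb3, Fn1, Vcl, Flna and Cd44, against 11.9% of all genes. Without overlap between the 3 KP and the 3 N values, 12 members were lower in KP and 0 higher in polysome-associated mRNA, where 15.8% and 17.97% of all genes were so ordered. In total mRNA 10 were lower and 1 higher in this sense, against 16.5% and 15.9%. In these bulk lysates, fewer cells of a kind and less of an mRNA per cell cannot be told apart. Markers of other cells differed as well. The 5 mesenchymal-like markers summed to 5.005, 4.65 and 0.611 RPKM in polysome-associated mRNA of N vehicle lysates 1 to 3 and to 0.209, 0.158 and 12.7 RPKM in KP, and to 4.86, 4.24 and 0.754 and to 0.158, 0.162 and 0.840 RPKM in total mRNA, so that replicate 3 made the groups overlap in both fractions. The 5 leukocyte markers summed to 6.66, 7.37 and 15.5 RPKM in N and 2.40, 2.59 and 7.29 RPKM in KP polysome-associated mRNA, which overlapped, and to 6.78, 7.79 and 14.19 and to 3.13, 2.63 and 1.87 RPKM in total mRNA, which did not. Cd68 and Csf1r made up nearly all of these sums, since Ptprc, Cd3e and Adgre1 were each at most 0.0162 RPKM in vehicle-treated libraries other than the polysome library of KP replicate 3. Of these markers, Cdh2, Twist1, Csf1r and Cd68 were called lower in both fractions and Vim in total mRNA, and their part in the members' differences was not tested.

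**Figure D2:**
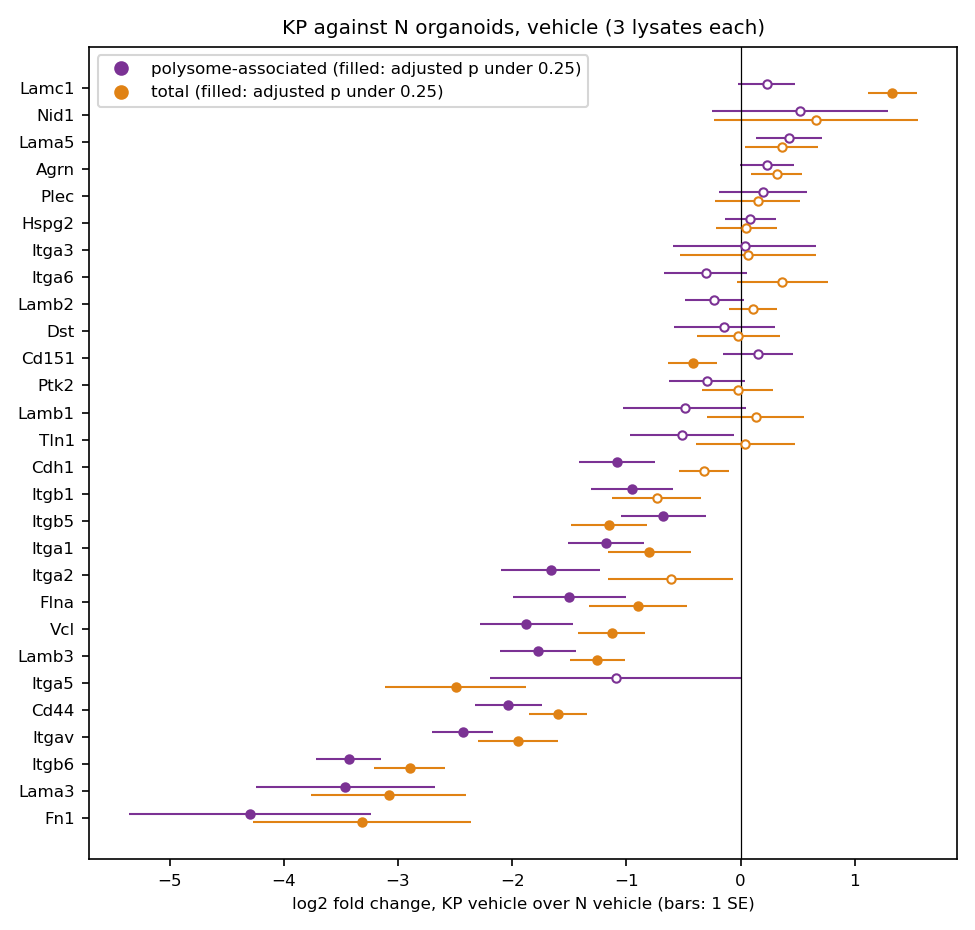
Log2 fold change of KP over N vehicle-treated organoids for the 28 tested members in polysome-associated (purple) and total mRNA (orange), with bars of 1 SE and filled points where the adjusted p was under 0.25. The values run from -4.30 for Fn1 in polysome-associated mRNA to 1.33 for Lamc1 in total mRNA, and the filled points other than that of Lamc1 lie left of 0.

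Integrin beta6 (Itgb6), an epithelial subunit that pairs only with alpha v and binds the latent form of TGF-beta, differed most clearly among the receptors. Its polysome-associated mRNA was at 113, 85.3 and 114 CPM in N vehicle lysates 1 to 3 and at 7.32, 9.98 and 11.7 CPM in KP. In total mRNA it was at 103, 79.4 and 78.7 CPM in N and 9.10, 11.3 and 14.5 CPM in KP. The lowest N library was thus several times the highest KP library in both fractions. The log2 fold change was -3.43 (SE 0.28, adjusted p = 0.000285) in polysome-associated mRNA and -2.90 (SE 0.31, adjusted p = 0.000788) in total mRNA.

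Its partner Itgav was lower as well. Polysome-associated Itgav was at 154, 137 and 125 CPM in N and 20.3, 29.03 and 27.5 CPM in KP, and total Itgav at 106, 67.9 and 122 CPM in N and 21.3, 27.7 and 27.6 CPM in KP, with no overlap in either fraction. The log2 fold change was -2.44 (SE 0.27, adjusted p = 0.000647) and -1.95 (SE 0.35, adjusted p = 0.00847). Itgb5, a further partner of alpha v, was lower by a smaller amount, with log2 fold changes of -0.68 (SE 0.37, adjusted p = 0.227) and -1.16 (SE 0.33, adjusted p = 0.05002), and its polysome call was kept in 9 of 18 fits that left out lysates. Itgb8, also an alpha v partner, was not tested. It had 11 to 233 counts in the 12 N libraries and 0 to 4 counts in the 12 KP libraries.

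Of the subunits that pair with beta1, the collagen receptors Itga1 and Itga2 were lower in polysome-associated mRNA of KP organoids, with log2 fold changes of -1.18 (SE 0.33, adjusted p = 0.0354) and -1.66 (SE 0.43, adjusted p = 0.0265). Total Itga1 was lower by a change of -0.80 (adjusted p = 0.200), a call kept in 9 of 18 such fits, and total Itga2 (-0.61, adjusted p = 0.534) did not pass. Itgb1 was lower in polysome-associated (-0.95, SE 0.36, adjusted p = 0.0916) but its total mRNA, at -0.74 (adjusted p = 0.277), did not pass. The laminin receptor subunits Itga3 (0.04 and 0.06) and Itga6 (-0.31 and 0.37) passed in no comparison of KP with N, and the joint entry of Galk1 and Itgb4, fitted among 12209 entries with joint entries kept, had 0.53 (adjusted p = 0.346) and 0.50 (adjusted p = 0.409).

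Itga5, the fibronectin receptor subunit, rested on the library that stood apart. Its total mRNA was at 2.37, 5.64 and 3.43 CPM in N and 0.320, 0.615 and 1.09 CPM in KP (log2 fold change -2.50, SE 0.62, adjusted p = 0.0294). Its polysome-associated mRNA was at 2.09, 5.97 and 5.94 CPM in N and 0.132, 0.540 and 5.91 CPM in KP, so that KP replicate 3 alone lay in the range of N. The log2 fold change of -1.09 (SE 1.11, adjusted p = 0.524) did not pass with that lysate and was -3.86 (SE 1.06, adjusted p = 0.0428) without it. In that library the leukocyte integrins Itgam and Itgb2 were at 1.41 and 0.970 RPKM, against at most 0.0144 and 0.00903 RPKM in the polysome-associated libraries of the other 2 KP vehicle lysates, and whether they account for the Itga5 value was not tested.

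Fibronectin (Fn1) had the largest difference of the 28 tested members in both fractions. Polysome-associated Fn1 was at 599.8, 337 and 308 CPM in N and at 4.63, 7.30 and 51.4 CPM in KP, and total Fn1 at 473, 220.4 and 235 CPM in N and at 7.35, 12.1 and 73.8 CPM in KP. KP replicate 3 was above replicates 1 and 2 in both fractions, and every KP value was below every N value. The log2 fold change was -4.30 (SE 1.06, adjusted p = 0.0216) and -3.31 (SE 0.96, adjusted p = 0.0508). Without KP vehicle replicate 3 it was -6.15 (SE 1.08, adjusted p = 0.0111) in polysome-associated and -5.00 in total mRNA.

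The laminin genes did not move together. Lama3 and Lamb3 encode the alpha and beta chains of laminin-332, the ligand of hemidesmosomes, and both were lower in KP. Polysome-associated Lama3 was at 10.4, 4.48 and 8.47 CPM in N and 0.776, 1.11 and 0.231 CPM in KP, and total Lama3 at 7.16, 2.56 and 4.61 CPM in N and 0.891, 0.576 and 0.227 CPM in KP, without overlap in either fraction and with counts down to 17 per library. The log2 fold change was -3.46 (SE 0.78, adjusted p = 0.0155) and -3.08 (SE 0.68, adjusted p = 0.0188). Lamb3, at a higher level, had -1.77 (SE 0.33, adjusted p = 0.00756) and -1.25 (SE 0.24, adjusted p = 0.0114).

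Lamc1, the gamma chain shared by most basement membrane laminins, was the exception. Its total mRNA was at 58.2, 35.6 and 45.5 CPM in N and 102, 132 and 116 CPM in KP, a log2 fold change of 1.33 (SE 0.22, adjusted p = 0.00506) with no overlap. Its polysome-associated mRNA was at 67.5, 58.2 and 48.97 CPM in N and 64.1, 61.7 and 78.8 CPM in KP, ranges that overlapped (0.23, SE 0.25, adjusted p = 0.553). The alpha chain Lama5, which joins Lamc1 in laminins of epithelial basement membranes, had 0.42 (adjusted p = 0.331) and 0.36 (adjusted p = 0.533), and the beta chains Lamb1 (-0.49 and 0.13) and Lamb2 (-0.23 and 0.11) did not pass in either fraction. The same held for perlecan (Hspg2, 0.09 and 0.05), agrin (Agrn, 0.23 and 0.32) and nidogen (Nid1, 0.52 and 0.66). The joint entry of Col4a1 and Col4a2, the main type IV collagen chains, was at 254, 254 and 221 CPM in N and 31.7, 43.6 and 65.1 CPM in KP polysome-associated mRNA. It was lower in KP in both fractions, with log2 fold changes of -2.40 (SE 0.31, adjusted p = 0.00155) and -1.83 (SE 0.26, adjusted p = 0.00273).

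Cd44 was the most abundant member to differ. Polysome-associated Cd44 was at 1134, 1216 and 864 CPM in N and 159, 302 and 323 CPM in KP, and total Cd44 at 1006, 1081 and 1004 CPM in N and 235, 399 and 385 CPM in KP, with wide gaps between the groups. The change on the log2 scale was -2.03 (SE 0.29, adjusted p = 0.00303) and -1.60 (SE 0.25, adjusted p = 0.00480). With vehicle, Cdh1 was lower in polysome-associated mRNA (-1.08, SE 0.33, adjusted p = 0.0459, against -0.32, adjusted p = 0.401, in total mRNA). The difference between these changes did not pass a test of its own by edgeR (adjusted p = 0.433) or by regression, while DESeq2 called it lower. With CR-31, Cdh1 and Itgb1 were called lower in KP in total mRNA (Cdh1 -0.39, adjusted p = 0.242, Itgb1 -0.98, adjusted p = 0.123) and not in polysome-associated mRNA (-0.36, adjusted p = 0.567, and -0.49, adjusted p = 0.457). The changes of Cdh1 were close to each other in both fractions, and the difference between the fractions with CR-31 was not tested.

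Of the proteins inside the cell, vinculin (Vcl) and filamin A (Flna), which couple adhesions to actin, were lower in KP, Vcl with log2 fold changes of -1.88 (SE 0.41, adjusted p = 0.0134) and -1.13 (SE 0.29, adjusted p = 0.0347) and Flna with -1.50 (SE 0.49, adjusted p = 0.0589) and -0.90 (SE 0.43, adjusted p = 0.223), the last of which was kept in 7 of 18 fits that left out lysates. Talin (Tln1, -0.51 and 0.04) and focal adhesion kinase (Ptk2, -0.29 and -0.03) passed in neither fraction. The joint entry of Ilk, Rrp8 and Taf10 was higher in KP in polysome-associated mRNA (0.60, SE 0.18, adjusted p = 0.0426) and had -0.07 (adjusted p = 0.851) in total mRNA. None of the hemidesmosomal linkers was called in polysome-associated mRNA: Plec had 0.20 and 0.15, Dst -0.14 and -0.02, and Cd151 0.15 and -0.42, the last with an adjusted p of 0.247 that was kept in 6 of 18 fits. Itgav, Itgb6, Lama3, Lamb3, Fn1, Vcl and Cd44 were called lower in both fractions in all 18 fits that left out lysates.

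**Figure D3:**
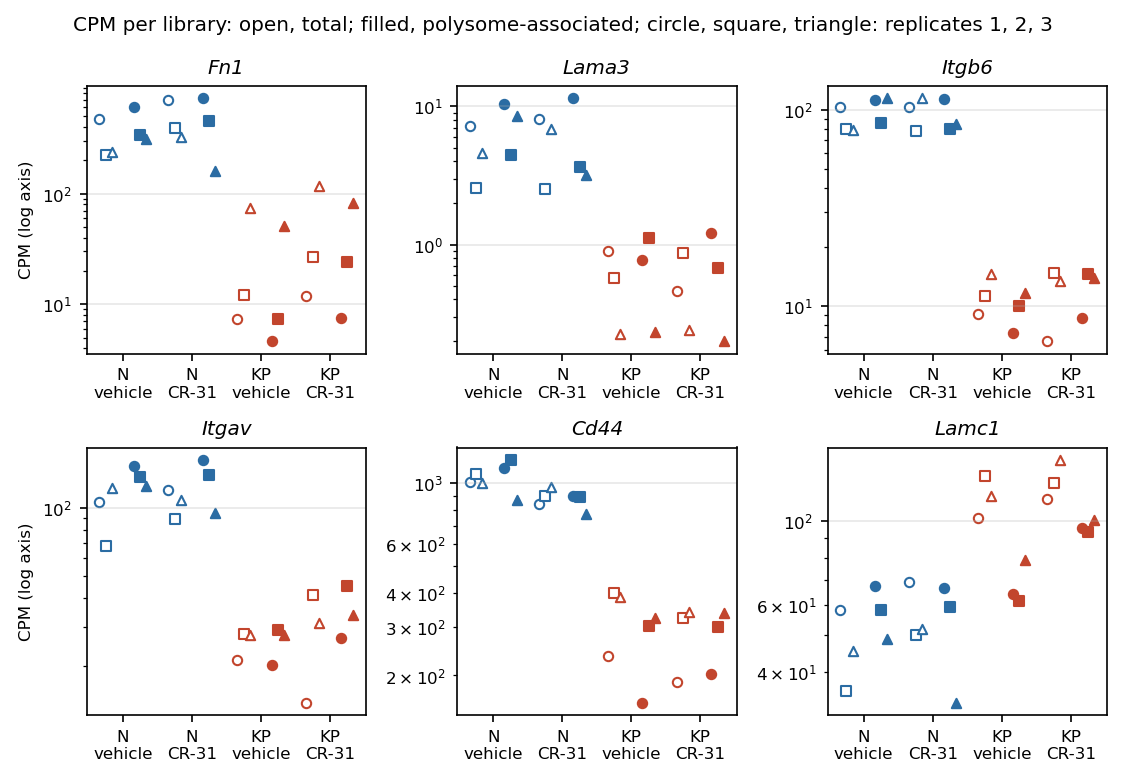
CPM of Fn1, Lama3, Itgb6, Itgav, Cd44 and Lamc1 in each of the 24 libraries on log axes, for total (open) and polysome-associated mRNA (filled) of replicates 1, 2 and 3 (circle, square, triangle). For the first 5 genes every KP point lies below every N point, while total Lamc1 is higher in KP, at 102 to 132 CPM in vehicle-treated KP against 35.6 to 58.2 CPM in N.

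The comparison of KP with N in CR-31-treated organoids used lysates that share replicate numbers with the vehicle lysates and correlated with them, so it is not independent of the comparison above. In polysome-associated mRNA 10 members were lower and 1, Lamc1, was higher, against 13.8% and 11.2% of all genes. In total mRNA 12 were lower and 4 higher, against 21% and 18.9%. In all, 9 members were called lower in all 4 comparisons, namely Itga1, Itgav, Itgb5, Itgb6, Lama3, Lamb3, Fn1, Vcl and Cd44, against 9.35% of all genes. Those higher in total mRNA of CR-31-treated KP organoids were the basement membrane genes Lama5 (0.93, adjusted p = 0.0821), Lamc1 (1.17, adjusted p = 0.00965), Hspg2 (0.82, adjusted p = 0.0724) and Agrn (0.87, adjusted p = 0.0317). Called in no comparison of KP with N were Itga3, Itga6, Lamb1, Lamb2, Nid1, Dst, Plec, Tln1 and Ptk2.

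Other genes of adhesion, taken from lists that do not hold the members, are given for the vehicle-treated organoids in polysome-associated mRNA, where 22.2% of all genes were lower and 20.9% higher in KP. Of 9 tested other matrix proteins, 8 were lower in KP and 0 higher (median log2 fold change -1.92), among them tenascin C (Tnc, -4.38, SE 0.82), thrombospondin 1 (Thbs1, -2.89, SE 0.49) and osteopontin (Spp1, -2.53, SE 0.49), a ligand of alpha v integrins. Of 28 tested focal adhesion adaptors 13 were lower and 5 higher (median -0.31), with tensin 1 (Tns1, -2.19, SE 0.68) and alpha-actinin 1 (Actn1, -1.74, SE 0.42) among the lower and tensin 4 (Tns4, 2.41, SE 0.85) among the higher. Of 10 tested other basement membrane genes 4 were lower and 2 higher (median -0.41). The lower ones included Col4a5 (-2.14, SE 0.35) and the higher ones were Tinagl1 (1.77, SE 0.36) and Col18a1 (0.92, SE 0.37). Of 15 tested matrix receptors and tetraspanins 6 were lower, such as syndecan 4 (Sdc4, -1.20, SE 0.33), and 1 was higher, the laminin receptor Bcam (1.12, SE 0.31). Of 21 tested genes of cell-cell junctions 8 were lower, such as desmoglein 2 (Dsg2, -1.62, SE 0.30) and claudin 4 (Cldn4, -1.76, SE 0.42), and 0 were higher. Of 15 other integrin subunits 3 were among the tested genes, and 1 of them, Itga2b (0.99, SE 0.46), was called. Itga7, in a joint entry with Mettl7b that was not among the tested genes, was at 0.693 to 2.71 RPKM in N and 2.57 to 10.84 RPKM in KP polysome-associated mRNA, ranges that overlapped.

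Because several members were lower together, the 250 bases before their transcription start were searched. A RefSeq promoter of GRCm38.p6 matched 26 of the 34 symbols. The motif GGGCGG, the GC box bound by SP1, was found on either strand in 14 of these 26 (53.8%), in 60% of 8848 tested genes with a promoter and in 32.9% of all 27025 promoters. The AP-1 motif TGANTCA was found in 0 members and 4.55% of tested genes, the TEAD motif GGAATG in 4 members (15.4%) and 10.7%, and the TATA motif TATAAA in 1 member (3.85%) and 6.52%. Matches of the same motif may overlap each other. Of the 10 members lower in both fractions, 8 had a promoter and 3 of these held GGGCGG (Itgb5, Vcl and Flna), and of the other 24 members 18 had one and 11 held it. Promoters of a pair of genes lower in KP and of a pair of basement membrane genes that were not are shown, chosen after their values were seen, with the matches to GGGCGG or its reverse complement in capitals. They lie on the minus strand at chr2:60722604-60722853 (Itgb6, 0 matches), chr2:102901666-102901915 (Cd44, 0 matches), chr4:156197489-156197738 (Agrn, 12 matches) and chr2:180225860-180226109 (Lama5, 4 matches), and are written 5′ to 3′ up to the base before the transcription start.
Itgb6: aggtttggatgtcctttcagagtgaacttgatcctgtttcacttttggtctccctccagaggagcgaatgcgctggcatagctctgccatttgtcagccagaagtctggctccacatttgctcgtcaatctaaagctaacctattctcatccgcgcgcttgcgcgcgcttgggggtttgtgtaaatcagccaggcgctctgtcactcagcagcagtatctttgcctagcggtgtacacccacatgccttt
Cd44: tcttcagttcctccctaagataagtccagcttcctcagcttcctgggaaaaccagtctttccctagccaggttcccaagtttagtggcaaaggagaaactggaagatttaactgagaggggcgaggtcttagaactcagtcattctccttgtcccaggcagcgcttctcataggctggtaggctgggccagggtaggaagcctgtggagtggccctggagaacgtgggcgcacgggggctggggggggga
Agrn: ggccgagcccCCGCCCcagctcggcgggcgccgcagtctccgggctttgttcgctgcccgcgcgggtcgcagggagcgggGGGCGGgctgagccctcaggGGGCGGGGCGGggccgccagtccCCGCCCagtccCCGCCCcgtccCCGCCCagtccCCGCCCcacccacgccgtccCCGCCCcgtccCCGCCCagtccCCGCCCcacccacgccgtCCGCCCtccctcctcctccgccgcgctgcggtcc
Lama5: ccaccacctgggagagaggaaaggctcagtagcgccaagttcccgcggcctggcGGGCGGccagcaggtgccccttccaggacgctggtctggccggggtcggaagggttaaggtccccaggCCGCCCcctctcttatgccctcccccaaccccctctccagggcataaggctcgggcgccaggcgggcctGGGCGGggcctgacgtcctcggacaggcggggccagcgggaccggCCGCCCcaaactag
A match describes these letters in this window only, and the shares of the members and of the tested genes lay close to each other for GGGCGG. The promoters shown do not stand for their sets: Vcl, lower in KP, had 4 matches, and Lamb2 and Tln1, called in no comparison, had 0.

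Whether the adhesion mRNAs were carried on polysomes to a like degree was read from the ratio of polysome-associated to total mRNA of the same lysates, in a model of all 24 libraries with the lysate as a block. In vehicle-treated N organoids 5 of 28 members had a higher share on polysomes (Lamb2, Tln1, Flna, Lamb3 and Itga2) and 0 a lower one, against 8.83% and 6.36% of all genes, with a median log2 ratio of 0.28 (all genes -0.05). In vehicle-treated KP organoids 1 had a higher ratio (Itgb5, 0.40, SE 0.16) and 9 a lower one (Lamc1, Fn1, Itga2, Vcl, Nid1, Cd44, Cdh1, Lamb1 and Itgb6), against 14.2% and 13.3%, with a median of -0.10 (all genes -0.02). In N the highest log2 ratios were those of Itga2 (0.74, SE 0.31), Lama3 (0.69, SE 0.35) and Lamb2 (0.53, SE 0.15), and the lowest those of Nid1 (-0.19, SE 0.20), Cd151 (-0.16, SE 0.22) and Plec (-0.13, SE 0.25). In KP the highest were Itga5 (0.44, SE 0.56), which was at -1.37, -0.28 and 2.35 in lysates 1 to 3 and so rested on the polysome library that stood apart, Itgb5 and Cd151 (0.37, SE 0.22), and the lowest Lamc1 (-0.87, SE 0.18, adjusted p = 0.0462), Fn1 (-0.73, SE 0.20) and Itga2 (-0.65, SE 0.31). Lamc1 was at -0.77, -1.19 and -0.65 in the 3 KP lysates and at 0.15, 0.68 and 0.05 in the 3 N lysates. Fn1 was at -0.77, -0.82 and -0.61 in KP and at 0.28, 0.58 and 0.34 in N. In neither gene did the KP and N vehicle lysates overlap, while the CR-31 lysates overlapped in both, Lamc1 at -0.23, -0.48 and -0.58 in KP and -0.12, 0.18 and -0.72 in N, and Fn1 at -0.63, -0.21 and -0.55 in KP and -0.02, 0.14 and -1.09 in N. No member was called in N without N vehicle replicate 2, nor in KP without KP vehicle replicate 1 or 2.

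The difference of that ratio between KP and N, the translational efficiency contrast, was below 0 in 24 of the 28 members, with a median of -0.50 against 0.00 over all genes. It was called for 0 members and 0% of all genes by edgeR (lowest adjusted p 0.433), with 11 members and 1296 genes at an unadjusted p under 0.05. DESeq2 called 7 members, each lower (1.77% of all genes lower): Itga2, Lamc1, Fn1, Tln1, Vcl, Flna and Cdh1. Polysome-associated mRNA was also regressed on total mRNA, the form of the study's test but without its filters on slope and size of change. This regression called 5, each lower (4.46%): Itga1, Itga2, Itgav, Lamb1 and Tln1. Without N replicate 3, edgeR called 16 members lower and 2 higher (Itgb5 and Cd151), against 15.8% and 20% of all genes, without N vehicle replicate 3 alone 11 lower and 1 higher, against 10.4% and 8.36%, and without N CR-31 replicate 3 alone 8, each lower, against 2.49%. The lowest values were -1.39 (SE 0.44) for Itga2, -1.16 (SE 0.26) for Lamc1 and -1.13 (SE 0.28) for Fn1.

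Coding length moved with this contrast. The members' median coding length was 3536 nt against 1392 nt over all tested genes, and 27 of 28 were among the longest 25% of genes (over 2211 nt), with Cd151, at 759 nt, the exception. Over all genes, the median difference of KP from N went from 0.27 in the shortest 25% of genes through 0.08 and -0.10 in the next to -0.37 in the longest 25%, with r = -0.50 across 11383 genes, which are not independent replicates. The members' median was -0.50, and within the 28 members r with length was -0.05. For 33 tested subunits of respiratory complex I, which are short (median 468 nt), the median was 0.45. How far length accounts for the members' ratios was not tested.

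**Figure D4:**
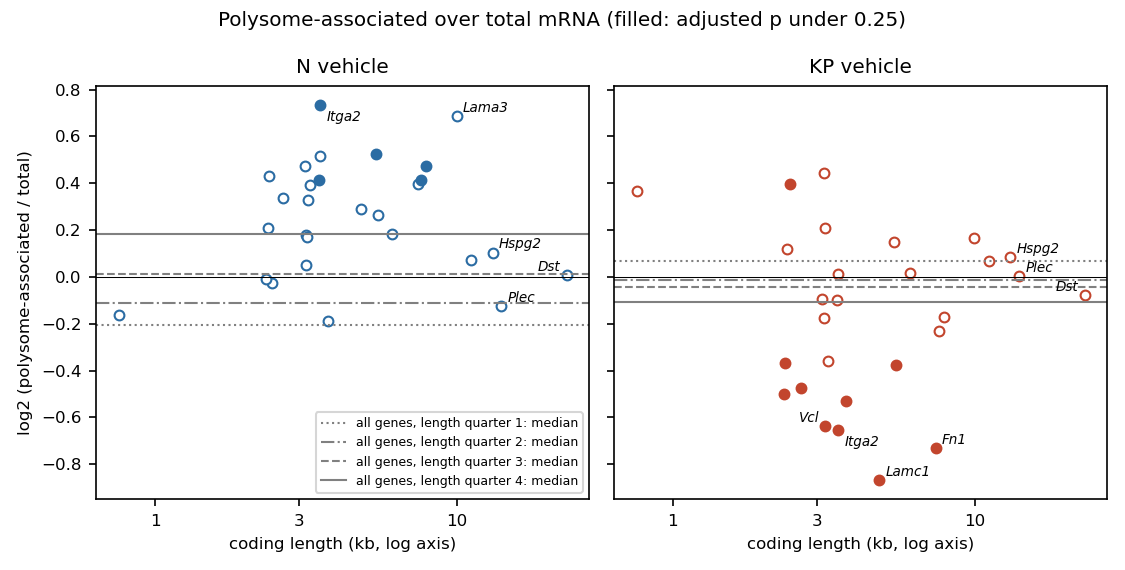
Log2 ratio of polysome-associated to total mRNA of the 28 tested members against coding length (log axis) in vehicle-treated N and KP organoids, filled where the adjusted p was under 0.25, with lines at the medians of all genes in 4 equal bins of length. The longest bin has the highest median in N (0.18) and the lowest in KP (-0.11), and the members lie on both sides of it.

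The effect of CR-31 was asked within each organoid type. In KP organoids no member passed in polysome-associated mRNA, total mRNA or their ratio, and 0% of all genes did. The same held for N organoids and for the difference of the 2 responses in polysome-associated mRNA, so 0% was called there too. At an unadjusted p under 0.05 there were 3 members and 406 genes in KP and 0 members and 48 genes in N in polysome-associated mRNA, and DESeq2 also called 0 genes. There were 4 members and 109 genes in KP and 2 and 297 in N in total mRNA, 4 and 627 in KP and 3 and 328 in N for the ratio, and 0 and 258 for the difference of the responses, while DESeq2 called 8 genes in KP and 13 in N in total mRNA, 0 of them members. The members' median log2 change in polysome-associated mRNA was 0.28 in KP (all genes -0.02) and -0.02 in N (all genes 0.00). In KP this change rose with coding length over all genes (r = 0.35), while within the members r was -0.13. The median in KP went from -0.20 in the shortest bin of genes to 0.17 in the longest, which holds all members but Cd151. In N the medians of the same bins were 0.05 and -0.03. How far length accounts for the members' change with CR-31 was not tested.

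Read by numbered pairs, polysome-associated mRNA of 16 of 28 members was higher with CR-31 in 3 of 3 pairs of KP lysates and of 2 (Lama5 and Itgb5) lower in 3 of 3, against 28.9% and 30.6% of all genes. These shares and the later ones for CR-31 are over genes of all lengths and are not matched to the members in length. The members' medians in the 3 KP pairs were 0.42, 0.40 and 0.21. In N organoids the pair medians were 0.10, 0.00 and -0.34, and 1 member was higher and 3 were lower in 3 of 3, near the 9.24% and 11.4% of all genes. In KP the members with the smallest p were Itga2 (1.19, SE 0.43), Cdh1 (0.78, SE 0.33) and Itgb1 (0.81, SE 0.36), each with an adjusted p of 1. Itga2 was at 9.35, 16.1 and 9.66 CPM with vehicle and 18.9, 45.7 and 15.3 CPM with CR-31, Cdh1 at 236, 303 and 356 and then 443, 558 and 536 CPM, and Itgb1 at 119, 161 and 150.5 and then 254, 275 and 228 CPM. The vehicle and CR-31 values overlapped for Itga2 and did not for Cdh1 and Itgb1. Within the lane of vehicle 1 and 2 with CR-31 1 and that of vehicle 3 with CR-31 2 and 3, the log2 changes were 0.63 and 1.45 for Itga2, 0.73 and 0.62 for Cdh1 and 0.88 and 0.73 for Itgb1.

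When the replicate number entered the model as a block, separately in N and KP, 12 members were called higher with CR-31 in polysome-associated mRNA of KP organoids and 0 lower, against 8.3% and 11.1% of all genes. They were Itga1 (0.43), Itga2 (1.07), Itga6 (0.50), Itgav (0.45), Itgb1 (0.82), Itgb6 (0.35), Lamb1 (0.59), Lamc1 (0.51), Fn1 (1.03), Tln1 (0.80), Vcl (0.40) and Cdh1 (0.79), with adjusted p-values of 0.192 to 0.232. In N organoids and for the difference between the types the block gave 0 calls. With N replicate 3 left out as well, a setting chosen after seeing the data, the block called 17 members higher and 4 lower in KP (25.4% and 29.5% of all genes), 8 higher and 2 lower in N (9.68% and 5.36%), and 11 more positive and 3 more negative in KP than in N (11.1% and 15.9%). The 4 lower in KP were Lama5, Itga5, Itgb5 and Plec. Itga5 changed by 0.81, -0.81 and -1.71 in its KP pairs and Plec by -0.07, 0.08 and -0.75, so neither fell in every pair. The last pair of Itga5 holds the vehicle polysome library that stood apart.

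In N organoids the members with the smallest p were Itgb5 (0.44, SE 0.37), Cd44 (-0.33, SE 0.28) and Itgb1 (0.36, SE 0.36), each with an adjusted p of 1. Itgb5 was at 27.22, 36.5 and 51.9 CPM with vehicle and 37.3, 47.7 and 71.8 CPM with CR-31, and Cd44 at 1134, 1216 and 864 and then 898, 888 and 775 CPM, so both moved the same way in 3 of 3 pairs while their groups overlapped. Itgb1 was at 376, 217 and 238 and then 533, 368 and 164 CPM. Its changes of 0.51 and 0.76 in pairs 1 and 2 and of -0.54 in pair 3 are an instance of a wider split, seen also in Cdh1 (0.50, 0.42 and -1.14) and Lamb3 (0.89, 0.63 and -0.90). Within the lanes of N organoids the members' medians were 0.27, with 22 of 28 above 0, and -0.09, with 11 above 0, and in KP 0.18 and 0.27.

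**Figure D5:**
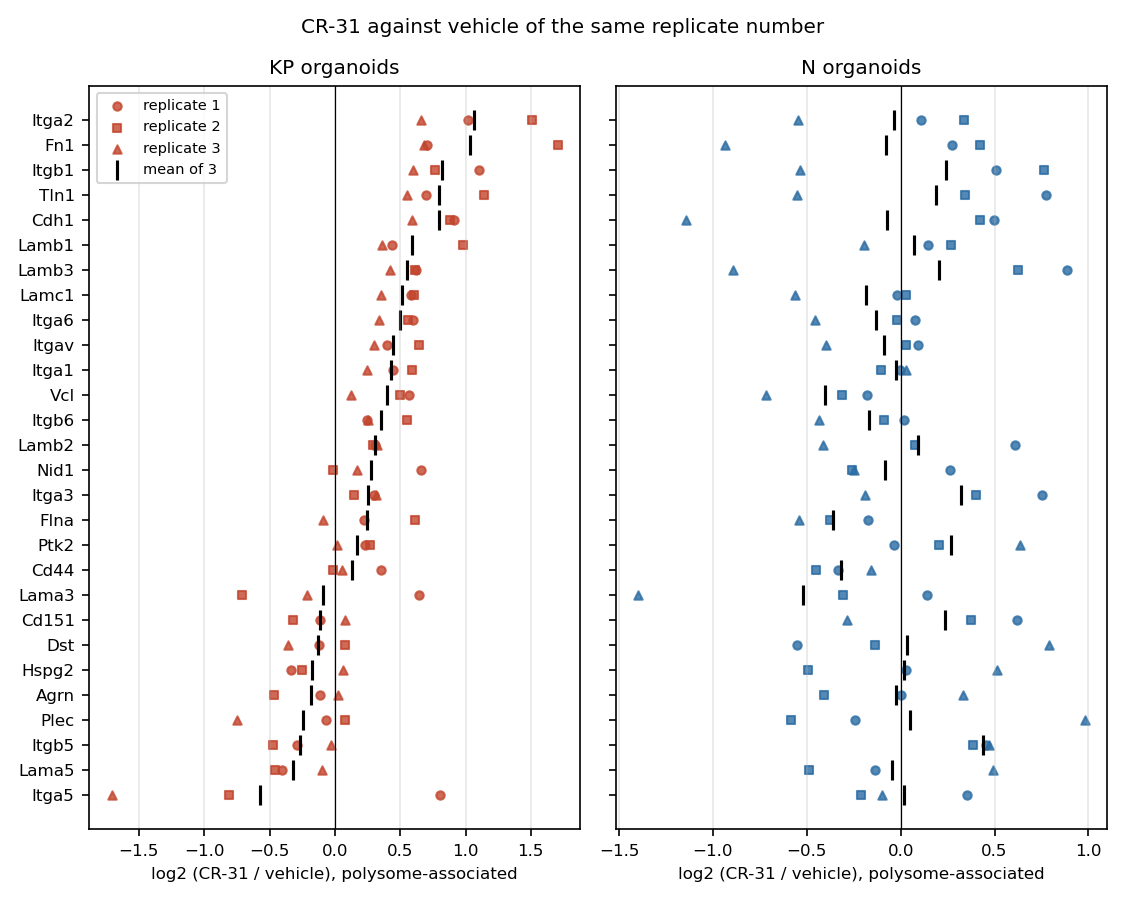
Log2 ratio of CR-31 over vehicle of the same replicate number in polysome-associated mRNA, for each tested member in KP (left) and N organoids (right), with the mean of the 3 pairs as a black bar, ordered by the KP mean. In KP the 3 pairs lie on the same side of 0 for 18 members, and in N the triangle of replicate 3 often lies on the other side of 0 from replicates 1 and 2, as for Cdh1, at -1.14.

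In total mRNA 8 of 28 members in N and 10 in KP were higher with CR-31 in 3 of 3 pairs, against 20.7% and 15.6% of all genes. In the same sense 3 were lower in N and 2 in KP, against 23.05% and 11.6%. Lamb2, Lamb3, Fn1, Tln1 and Cdh1 were higher in 6 of 6 pairs (7.501% of all genes) and Cd44 was lower in 6 of 6 (5.11%). The values of Lamb3, Cdh1 and Cd44 are given, chosen after they were seen. Lamb3 had log2 changes of 0.82, 1.00 and 0.62 in N and 1.06, 0.62 and 0.64 in KP, and Cdh1 of 0.58, 0.69 and 0.69 in N and 0.69, 0.50 and 0.55 in KP. Cd44 had -0.26, -0.27 and -0.05 in N and -0.31, -0.30 and -0.18 in KP. None of the 3 passed the test in either organoid type, with adjusted p-values of 0.9998 in N and 1 in KP.

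Replicate numbers differed widely in some members. The difference between the highest and lowest replicate number, over the 4 libraries of each, had a median over the members of 0.94 on the log2 scale in N and 0.65 in KP organoids. Nid1 differed 6.42-fold between N replicates 3 and 2 and 4.66-fold between KP replicates 2 and 3, Itga3 4.07-fold among N replicates with replicate 1 highest, and Fn1 10.5-fold among KP replicates with replicate 3 highest. In 12 of 28 members in N and 9 of 28 in KP, all 4 libraries of a replicate number lay above or below all libraries of the other numbers, as in 40.8% and 22.9% of all genes.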

How the data were processed

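Counts per RefSeq gene and library, which the authors deposited without normalization, were the values tested. RPKM values were deposited beside them and were used for levels between genes and for markers. The authors aligned read pairs of 100 bases with HISAT2, discarded reads with several matches and counted with RPKMforgenes, as the Methods and the submitters' processing notes state. These name the human build hg38, while the table holds mouse genes. Entries that list several symbols (1042 of 19895) were tested only in an added fit, and genes with a count of 0 in a library were left out as in the study, which left 11438. All 24 columns matched a label, with 0 unmapped.

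Tests were made in R 4.3.3 with edgeR 4.0.16 (TMM, quasi-likelihood, a model of the 4 groups per fraction, Benjamini-Hochberg over all tested genes, threshold 0.25). CPM is on TMM-scaled library sizes. The ratio of the fractions was tested in a model of all 24 libraries with the lysate as a block. DESeq2 1.42.0, a limma 3.58.1 regression, RLE and upper-quartile scaling, filterByExpr, the replicate block, and fits without each lysate or replicate number were alternatives. The steps were tested on simulated data. Tables and plots used Python 3.11.15, numpy 2.4.6, pandas 2.3.3 and matplotlib 3.10.9. Coding lengths were from GENCODE M21.

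Replicate numbers from the labels paired vehicle with CR-31 within a type: deviations from group means correlated across genes at r = 0.46 to 0.80 in KP and 0.55 to 0.89 in N, over 0.1 in 6 of 6 pairs each. Between N and KP r was -0.17 to 0.28, over 0.1 in 2 of 6 pairs each, so they were not paired. All 34 genes are named. Values in every sample are given for at most 5 members per direction called in both fractions, and for the 3 smallest p-values of CR-31 in each type, and ratios are named for the 3 highest and lowest. Lamc1, Itga5, the joint entry of Col4a1 and Col4a2, and the ratios shown by lysate were added after their values were seen. The members, lists and tests were chosen with earlier results of these data known. Chi-square tests found no pair of replicate libraries within sampling noise. A further allele of the KP mice is not reported here.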

Additional observations from a re-analysis of the deposited data

How the results depend on the processing

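Over 18 fits of KP against N that each left out lysates, 11 to 15 members were called in vehicle-treated polysome-associated mRNA, 10 to 14 in total mRNA, and 8 to 14 and 11 to 19 in CR-31-treated organoids. In the same fits the translational efficiency contrast of vehicle-treated organoids called 0 to 18 members, the ratio of the fractions 0 to 14 in N and 0 to 13 in KP, and every CR-31 contrast 0 to 0. For the ratio in KP the calls fell to 0 without KP vehicle replicate 1 or 2, and in N without N vehicle replicate 2. Under RLE or upper-quartile scaling and filterByExpr no count moved by over 1.5 times, except that filterByExpr called 3 members in the ratio in N, where DESeq2 called 8. The translational efficiency contrast called 7 members with DESeq2, 5 by regression and 10 by regression with the replicate block. For CR-31 in KP organoids the replicate block called 12 members in polysome-associated mRNA, and 4 in translational efficiency by regression. With N replicate 3 left out as well, a setting chosen after seeing the data, the block called 21 members in KP, 10 in N and 14 in their difference, and 23 members in polysome-associated mRNA of KP against N with vehicle and 23 with CR-31. As the block lies within organoid type, it takes the spread between lysates out of the error of KP against N, and these last counts are not calls over lysates. The block changed no other count by over 1.5 times. The cause of the other shifts was not tested. Organoid type and lane cannot be told apart, and Itgb8, Col17a1 and the members in joint entries are limited by low counts or shared reads.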
